A study of Mus musculus with 15 samples.

Results

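Clec4d, Clec4e, Clec7a, Clec5a, Clec12a and Clec4a2 encode C-type lectin receptors of myeloid cells. They were taken by gene symbol, all 6 of 6 were present among the 14801 genes measured, and all 6 passed the filter on low values. RNA was sequenced from 5 cell populations, each sorted by flow cytometry from freshly taken marrow of mice described as healthy, in 3 libraries per population and 15 in all. By the usual reading of the labels, CMP are common myeloid progenitors and CD115plusGMP are progenitors of granulocytes and monocytes that carry the surface receptor CD115. PreNeut_Neutrophil and ProNeut_Neutrophil, shortened here to PreNeut and ProNeut, are labelled as stages of the neutrophil line, and Neutrophil as neutrophils of the marrow. The labels give no strain, genotype, age or treatment beyond this. Whether the 3 libraries of a population came from different mice is not stated, so p-values reflect library-to-library spread that may be technical.

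C-type lectin receptors are surface proteins with a lectin-like domain that bind sugars, lipids or other ligands of microbes and of damaged cells. Activating members lead to the kinase Syk through a tyrosine motif of their own or through an adaptor. The adaptors that lead to Syk are Fcer1g (the Fc receptor gamma chain) and Tyrobp (DAP12). Hcst (DAP10) is a further receptor adaptor. Syk then signals through Card9, Bcl10 and Malt1 to NF-kB. Inhibitory members carry a tyrosine motif that recruits phosphatases such as Ptpn6. Of the genes described here, Clec7a encodes the receptor for fungal beta-glucans, which signals through its own motif. Clec4e (Mincle) and Clec4d (MCL) bind mycobacterial cord factor and couple to the Fc receptor gamma chain. Clec5a couples to the DAP12 adaptor. Clec12a and Clec4a2 (a DCIR family member) are the inhibitory receptors of the group.

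All 6 genes lie on chromosome 6 (GRCm38, GENCODE M21). Clec5a (Entrez 23845) stands alone at 40574894 to 40585821 on the minus strand. Clec4a2 (Entrez 26888) spans 123106428 to 123143999 on the plus strand. Clec4d (Entrez 17474) follows at 123262111 to 123275265 on the plus strand, and Clec4e (Entrez 56619) at 123281789 to 123289870 on the minus strand, so that the neighbours Clec4d and Clec4e are 6.52 kb apart and face each other with their 3′ ends. Clec12a (Entrez 232413) spans 129342691 to 129365303 on the plus strand and Clec7a (Entrez 56644) 129461591 to 129472779 on the minus strand, 96.3 kb apart. None of the 6 shares exon with an annotated gene on the opposite strand.

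The stretches below are the 250 bases upstream of the RefSeq start sites (GRCm38.p6) of 3 genes. The neighbours Clec4d and Clec4e are shown because they had the largest differences between ProNeut and PreNeut. Clec5a is shown because its mean log2 CPM, though not its place within the library, was alike in PreNeut, ProNeut and Neutrophil. The stretches are written 5′ to 3′ on the gene's strand. Capitals mark matches, on either strand, to 2 letter patterns: GAGGAAG, a core bound by PU.1, and TTGCNNAA, a C/EBP pattern. Clec4d is read from chr6:123261857-123262106 (plus strand), Clec4e from chr6:123289872-123290121 (minus strand) and Clec5a from chr6:40585806-40586055 (minus strand).
Clec4d: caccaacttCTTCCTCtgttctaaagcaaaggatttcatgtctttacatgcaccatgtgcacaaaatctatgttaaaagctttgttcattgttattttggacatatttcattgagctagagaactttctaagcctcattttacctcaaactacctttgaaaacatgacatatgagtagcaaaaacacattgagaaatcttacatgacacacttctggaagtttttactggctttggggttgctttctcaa
Clec4e: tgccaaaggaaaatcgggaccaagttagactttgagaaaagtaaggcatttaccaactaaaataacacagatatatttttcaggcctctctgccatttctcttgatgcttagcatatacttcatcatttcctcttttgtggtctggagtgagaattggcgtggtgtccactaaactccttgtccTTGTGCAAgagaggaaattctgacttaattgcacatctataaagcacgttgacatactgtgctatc
Clec5a: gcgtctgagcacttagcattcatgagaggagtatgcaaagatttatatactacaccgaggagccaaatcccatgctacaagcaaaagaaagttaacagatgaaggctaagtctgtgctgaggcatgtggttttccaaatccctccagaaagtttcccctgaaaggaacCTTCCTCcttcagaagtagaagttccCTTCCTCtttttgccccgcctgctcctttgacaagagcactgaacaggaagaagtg
Clec4d held 1 PU.1 match, with its first base at position -241 from the start site, and no C/EBP match. Clec4e held 1 C/EBP match, at -66, and no PU.1 match. Clec5a held 2 PU.1 matches, at -82 and -56. In the same 300-base window (250 before to 50 after the start), Clec12a held 1 PU.1 match at -61 and TTGCGCAA, a palindromic C/EBP match, at -140. Its stretch lies within an annotated Clec12a exon and is not printed. Neither pattern was found for Clec4a2 or for either start site of Clec7a, and an NF-kB pattern was found in none of the 6 genes. Of 32851 promoters of this length, 13.6% held the PU.1 core, 10.8% the C/EBP pattern and 50.8% the NF-kB pattern. A match is a run of letters and not evidence of binding.

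The libraries fell into a shallow and a deep set that follow the groups. The 9 CMP, CD115plusGMP and Neutrophil libraries held 810794 to 1444403 reads over the genes of the table, and the 6 PreNeut and ProNeut libraries 7493694 to 68171606. Many shallow-set reads fell on the 503 genes without a symbol. Their share was 55.6% to 55.8% in CMP, 60.3% to 61.7% in CD115plusGMP and 63.5% to 69.5% in Neutrophil. In the deep set it was 0.102% to 0.146%. The part of this in the results was not tested. ND6, which lies on the strand opposite to the other mitochondrial protein genes, took 69.1% to 93.3% of the reads of these genes in the shallow set and 0.154% to 0.230% in the deep set. In the shallow set a value may thus be made mostly of opposite-strand reads, and it is given here as a value of the gene's locus. Values are log2 CPM, which are reads scaled to the library size the authors used, on the log2 scale after 0.5 reads were added. Because of that addition, 0 reads appear as -1.31 to 0.63 in the shallow set and as -8.14 to -4.90 in the deep set. The library size used was 0.86 to 0.91 of a library's reads in CMP and 0.57 to 0.65 in CD115plusGMP. It was 0.25 to 0.45 in Neutrophil and 1.93 to 2.24 in the deep set. Read ratios between groups carry these factors too. Groups of different sets are given side by side without a test, since the effects of set and of group cannot be told apart. PreNeut replicate 3, the deepest library, stood apart. It had 0 reads for 2457 genes, against 1707 and 1942 in the shallower replicates 1 and 2. Of 10746 genes with at least 8 reads in both of those, 130 had 0 reads in replicate 3. In bulk libraries, fewer cells of a type and less RNA per cell cannot be told apart.

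Defining markers were compared with the labels. The 13 neutrophil markers summed to 40.4 to 42.6 CPM per library in CMP and 357 to 753 in CD115plusGMP. They summed to 73614 to 94893 in PreNeut, 93122 to 116440 in ProNeut and 10958 to 37669 in Neutrophil. The sum hides differences between these markers. Ly6g had 0, 4 and 16 reads in the Neutrophil replicates. Its mean log2 CPM there was 3.05, against 5.17 in PreNeut and 7.83 in ProNeut. Mmp8 (9.96, against 9.64 in ProNeut), Retnlg and Cxcr2 had their highest means in Neutrophil. The other markers of the 13 had lower means there than in ProNeut. Examples are Ngp (10.9 against 15.3), Ltf (10.2 against 13.6) and Mmp9 (9.16 against 9.73). These orders cross the sets and were not tested. Of the stem and progenitor markers, Ly6a was at 0 reads in CMP. The 10 monocyte and macrophage markers summed to 8.52 to 15.02 CPM in CMP, 307 to 538 in CD115plusGMP and 15.3 to 152 in Neutrophil. Of these, Csf1r, the gene of CD115, had a mean log2 CPM of 3.81 in CD115plusGMP and 5.16 in Neutrophil, with overlapping libraries. Ccr2 (6.29 and 1.46) and F13a1 (7.33 and 2.82) went the other way.

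**Figure D1:**
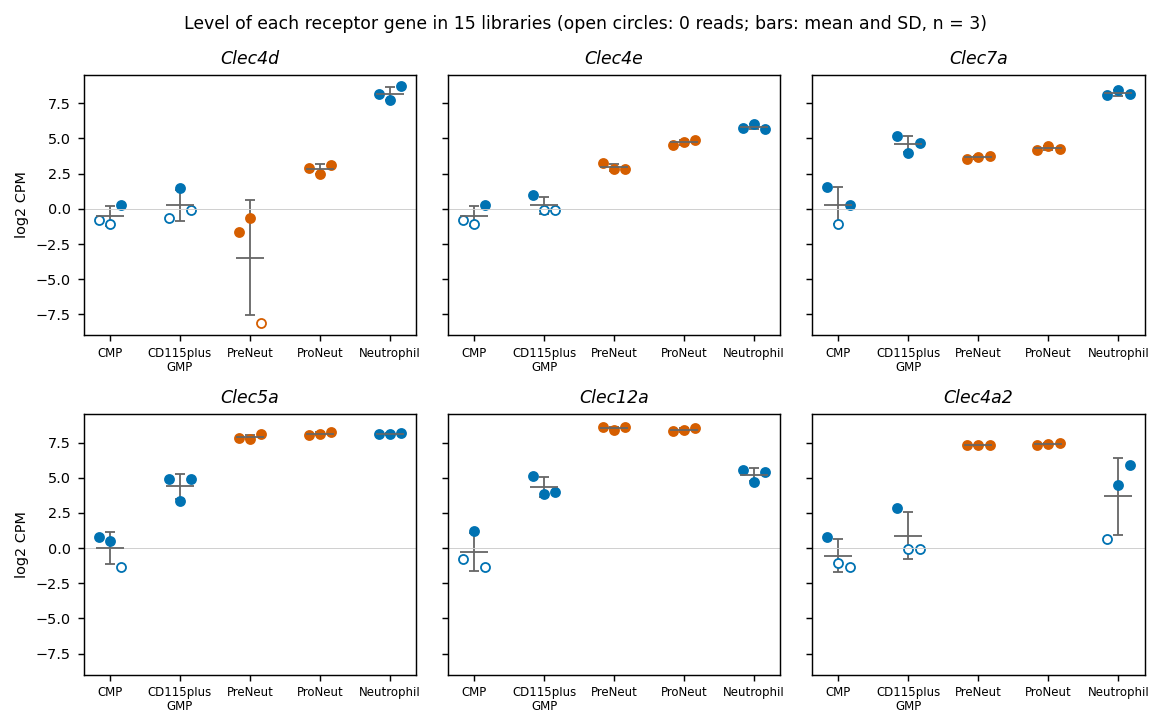
Log2 CPM (vertical axis) of the 6 receptor genes in the 15 libraries, grouped by population (horizontal axis), with shallow-set libraries in blue and deep-set libraries in orange. Points are libraries, open where the gene had 0 reads, and bars are the mean and SD of 3 libraries. Clec4d, Clec4e and Clec7a lie highest in Neutrophil, while Clec12a and Clec4a2 lie highest in PreNeut and ProNeut. Orders across blue and orange libraries were not tested and can depend on the library sizes used.

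Clec4d, the partner of Clec4e, had the widest span of group means of the 6. CMP replicates 1 to 3 had 0, 0 and 1 reads and CD115plusGMP replicates 0, 1 and 0. PreNeut replicates had 8, 16 and 0 reads (log2 CPM -1.67, -0.62 and -8.14), and ProNeut replicates 113, 114 and 222 (2.93, 2.45 and 3.11). Every ProNeut library was thus above every PreNeut library. In Neutrophil there were 93, 68 and 260 reads (8.18, 7.71 and 8.70), so Clec4d lay above 93.2% to 96.7% of the tested genes of those libraries. It lay above 49.5% to 56.5% in ProNeut and above 0% to 27.5% in PreNeut. Such places count genes at 0 reads as lying below. Of all genes, 7227 to 8266 had 0 reads in Neutrophil libraries and 4176 to 6124 in CD115plusGMP libraries. In the deep set 1681 to 2457 did, so places in the 2 sets are not like for like.

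Clec4e (Mincle) had 0, 0 and 1 reads in CMP and 1, 0 and 0 in CD115plusGMP. Its log2 CPM was 3.23, 2.81 and 2.82 in PreNeut, from 254, 178 and 995 reads, and 4.55, 4.72 and 4.92 in ProNeut, from 350, 552 and 783 reads. The Neutrophil libraries had 17, 21 and 32 reads, at 5.76, 6.04 and 5.70. As scaled, the order of its means ran from CMP and CD115plusGMP, whose libraries overlapped, through PreNeut and ProNeut to Neutrophil. This order crosses the 2 sets and was not tested. It rests on library sizes of 0.25 to 0.45 of the reads in Neutrophil and 1.93 to 2.24 in the deep set.

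Clec7a, the beta-glucan receptor, had 2, 0 and 1 reads in CMP. It had 27, 8 and 13 reads in CD115plusGMP, at 5.16, 3.999 and 4.68, and 86, 113 and 179 in Neutrophil, at 8.06, 8.44 and 8.17. Its deep-set values were lower, at 3.55 to 3.74 in PreNeut and 4.20 to 4.47 in ProNeut. The CD115plusGMP libraries overlapped those of ProNeut. Within the libraries, Clec7a lay above 60.8% to 62.9% of tested genes in PreNeut, 69.8% to 73.5% in ProNeut, 78.5% to 86.0% in CD115plusGMP and 94.9% to 95.4% in Neutrophil. Genes at 0 reads, which were more numerous in the shallow set, count as lying below here too.

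Clec5a, the DAP12-coupled receptor, had 1, 1 and 0 reads in CMP and 23, 5 and 15 in CD115plusGMP (log2 CPM 4.93, 3.37 and 4.88). In the other groups its means lay close together, at 7.90 ± 0.16 (SD, n = 3) in PreNeut, 8.14 ± 0.12 in ProNeut and 8.13 ± 0.06 in Neutrophil. Neutrophil libraries, at 8.11, 8.08 and 8.20, lay within the ProNeut range of 8.03 to 8.27. Clec5a lay above 98.6% to 98.9% of tested genes in PreNeut and 98.7% to 99.0% in ProNeut. In Neutrophil it lay above 94.2% to 95.4%, a lower place within the library.

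Clec12a, an inhibitory receptor for uric acid crystals, had 0, 2 and 0 reads in CMP and 27, 7 and 8 in CD115plusGMP (5.16, 3.82 and 4.02). The log2 CPM was 8.58, 8.42 and 8.58 in PreNeut and 8.31, 8.37 and 8.53 in ProNeut, where it lay above 99.0% to 99.4% of tested genes in all 6 libraries. Neutrophil libraries had 15, 8 and 26 reads, at 5.58, 4.70 and 5.41. That is above 74.8% to 83.0% of tested genes. CD115plusGMP and Neutrophil libraries overlapped.

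Clec4a2, the other inhibitory receptor, had 1 read in all 3 CMP libraries together and 5, 0 and 0 in CD115plusGMP. PreNeut libraries were at 7.32, 7.30 and 7.36 and ProNeut libraries at 7.35, 7.37 and 7.47. Neutrophil replicates had 0, 7 and 37 reads, at 0.63, 4.52 and 5.91, the widest spread of any member in that group (SD 2.74). ND6 took 84.5%, 90.9% and 69.1% of mitochondrial reads in these same replicates, and the part of this in the spread was not tested. Clec4a2 belongs to a family of near copies (Clec4a1, Clec4a3, Clec4b1), so its reads are uncertain where the authors' counting could split them.

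The make-up of the family within a library does not depend on scaling between libraries. It still carries the difference between the sets, since shallow-set reads may be mostly of the opposite strand. Reads were divided by exon length, which runs from 1599 bases for Clec4d to 5528 for Clec12a, and expressed as shares of the 6 genes. In PreNeut the sum was made of Clec12a (34.2% to 36.4%), Clec5a (31.4% to 34.8%) and Clec4a2 (27.8% to 29.9%), with Clec4d at 0% to 0.220%. The same 3 led in ProNeut, where Clec12a took 29.0% to 29.6%, below its PreNeut range, and Clec5a (34.4% to 35.4%) and Clec4a2 (26.7% to 28.3%) overlapped theirs. Clec4d took 1.65% to 2.39% there, and Clec4e took 2.39% to 2.69%, against 0.701% to 0.993% in PreNeut. In Neutrophil Clec4d took 36.6% to 53.9%, Clec7a 22.5% to 36.8% and Clec5a 15.8% to 19.7%, while the inhibitory Clec12a took 1.24% to 2.26% and Clec4a2 0% to 4.19%. In CD115plusGMP, on 21 to 83 reads a library for the 6 genes together, Clec7a led with 44.5% to 48.7%. With 3 libraries against 3 the lowest p an exact permutation test can reach is 0.1, so these shares are given without a test.

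**Figure D2:**
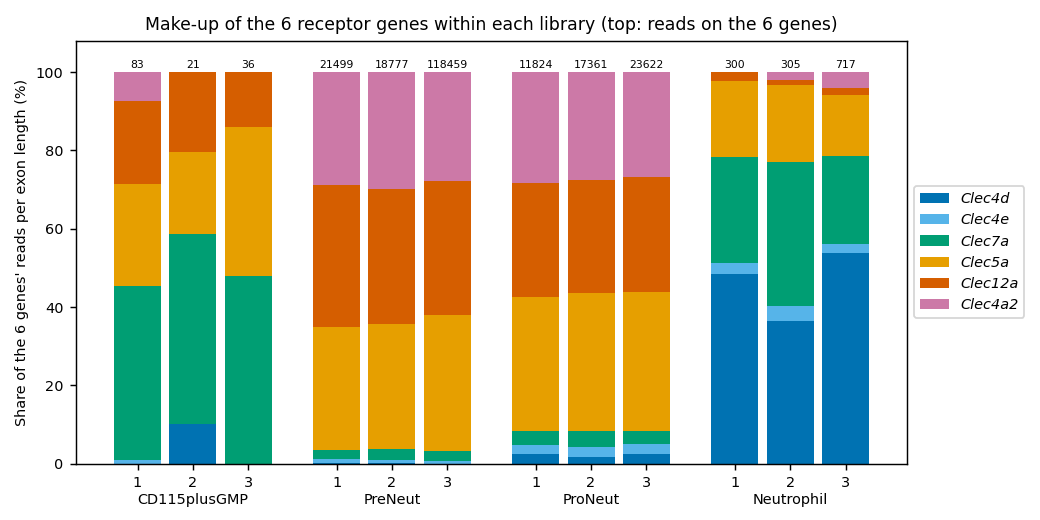
Share of each receptor gene in the reads per exon length of the 6 genes (vertical axis, percent) in each library of 4 populations (horizontal axis, replicates 1 to 3), with the number of reads on the 6 genes above each bar. CMP is not drawn, since its libraries had 3 or 4 reads on these genes. Clec12a, Clec5a and Clec4a2 fill most of the PreNeut and ProNeut bars, and Clec4d and Clec7a most of the Neutrophil bars. In CD115plusGMP and Neutrophil the reads may be mostly of the opposite strand.

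CD115plusGMP was compared with CMP to see which receptors differ in the progenitor sorted on CD115. Clec7a, Clec5a and Clec12a were higher in CD115plusGMP, and Clec4d, Clec4e and Clec4a2 did not pass. Clec7a had 48 reads against 3, a ratio of 27.7 of reads scaled by library size (95% counting interval 8.94 to 139), with a fitted difference of 4.37 ± 0.53 log2 units (SE, n = 3; limma adjusted p = 3.7e-05). Clec5a had 43 against 2, a ratio of 37.3 (9.71 to 318; difference 4.40 ± 0.49, adjusted p = 1.4e-05). Clec12a had 42 against 2, a ratio of 36.4 (9.47 to 310; difference 4.62 ± 0.54, adjusted p = 2.4e-05). For these 3, each CD115plusGMP library exceeded each CMP library. Such intervals cover counting error only, and not the choice of library size. So 3 of 6 members rose and 0 fell, where 8.08% of all 14161 genes tested were called higher and 4.56% lower (called means a limma p of under 0.05 after Benjamini-Hochberg adjustment and a difference of 1 log2 unit or more). The median of the 6 was 2.90, against 0.26 over all genes tested.

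Clec4d and Clec4e had 1 read in each group, and their difference of 0.80 is the value that Clec4n, with 0 reads in all 6 libraries, also had. Neither could be compared at this depth. Clec4a2 had 5 reads, all in CD115plusGMP replicate 1, against 1 (difference 1.43 ± 1.05, adjusted p = 0.43). The monocyte and macrophage markers moved with the 3 that rose, from 8.52 to 15.02 CPM summed in CMP to 307 to 538, with 8 of the 10 called higher and 0 at 0 reads in CD115plusGMP. The 8 erythroid markers moved the other way, from 483 to 617 CPM summed in CMP to 7.62 to 19.5, with 7 of 8 called lower. The 13 neutrophil markers summed to 40.4 to 42.6 CPM in CMP and 357 to 753 in CD115plusGMP, with 3 called higher and 0 lower. The 3 were Elane (difference 6.62), Mpo (6.41) and Prtn3 (6.41). The part of any of these markers in the result was not tested.

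Signalling genes were read from a list of 47, of which 39 were in the table and 35 tested. In CD115plusGMP 14 of these rose and 1 fell, beside 8.08% and 4.56% of all genes. All 3 receptor adaptors rose: Fcer1g by 3.19 ± 0.73 (24 reads against 4), Tyrobp by 3.02 ± 0.53 (61 against 10) and Hcst, with overlapping libraries, by 2.44 ± 0.69 (9 against 1, a ratio of 15.6, 2.16 to 684). Of 18 kinases and adaptors 8 rose. Syk rose by 2.49 ± 0.65 (adjusted p = 0.017), and the Src-family kinase gene Fgr had 7 reads against 0, at least 4.05-fold higher by a floor of 3 reads over the group. Card9 was at 3.44 against 0.95 and did not pass (adjusted p = 0.072). The gene that fell was Bcl10, named for that after its values were seen, with 0 reads against 8, at least 1.54-fold lower; its call was lost with the 2 groups alone, median centring, limma voom and 3 of 6 left-out libraries. Cebpb, a transcription factor of myeloid differentiation, rose by 3.37 ± 0.38, but shares exon sequence with Tmem189, which lies on the opposite strand. Of 30 other C-type lectin genes tested (33 in the table, 46 listed), 7 rose and 0 fell, beside the same shares of all genes, among them the selectin genes Sele (4.93 ± 0.99) and Selp (8 reads against 1, a ratio of 13.9, 1.86 to 615) and the galactose-type lectin gene Mgl2 (10 reads against 0, at least 5.78-fold higher).

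Neutrophil was compared with both progenitors. These comparisons share the Neutrophil libraries, and the one with CMP shares its CMP libraries with the comparison above. All 6 members were higher in Neutrophil than in CMP, where 26.8% of all genes were called higher and 17.1% lower. The 26.8% holds genes with 0 reads in every library of both groups, such as Mcpt8, called at a difference of 1.37. The largest read ratios were those of Clec4d, with 421 reads against 1 (ratio 1046, 187 to 41398), Clec5a, with 360 against 2 (447, 123 to 3706), and Clec7a, with 378 against 3 (313, 106 to 1524). Clec4e had 70 reads against 1 (174, 30.2 to 6964) and Clec12a 49 against 2 (60.9, 15.97 to 517). Clec4a2 had 44 against 1 (109, 18.6 to 4413). Fitted differences ran from 4.22 ± 1.05 for Clec4a2 (limma adjusted p = 0.0037) to 8.73 ± 1.31 for Clec4d (adjusted p = 4.6e-05), with a median of 7.18 against 0.60 over all genes. Erythroid markers were again lower than in CMP (7 of 8 called, 0 to 9.61 CPM summed in Neutrophil), and their part was not tested. Clec4a2 was the member whose libraries overlapped, and its difference was 3.11 to 5.75 when a library was left out.

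Against CD115plusGMP, 4 of 6 members rose and 0 fell, where 20.2% of all genes were called higher and 13.2% lower. Clec4d had 421 reads against 1 (ratio 603, 107.7 to 23880; difference 7.93 ± 1.31, adjusted p = 0.00017) and Clec4e 70 against 1 (100.3, 17.4 to 4017; 5.57 ± 0.48, adjusted p = 2.6e-07). Clec7a rose by 3.61 ± 0.53 (adjusted p = 6e-05) and Clec5a by 3.74 ± 0.49 (adjusted p = 1.8e-05). The inhibitory receptors did not pass. Clec12a was at 5.23 ± 0.47 (SD, n = 3) against 4.33 ± 0.72, a difference of 0.90 ± 0.54 (SE; adjusted p = 0.24), which was -0.15 with quantile normalization and 1.55 (adjusted p = 0.035) with median centring. Clec4a2 was at 3.69 ± 2.74 against 0.89 ± 1.68 (difference 2.79 ± 1.05, SE; adjusted p = 0.051). It passed without Neutrophil replicate 1, at 4.32, without CD115plusGMP replicate 1, at 3.77, and with median centring, at 3.44; without Neutrophil replicate 3 it was 1.68. The median of the 6 members was 3.67, against 0.32 over all genes.

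**Figure D3:**
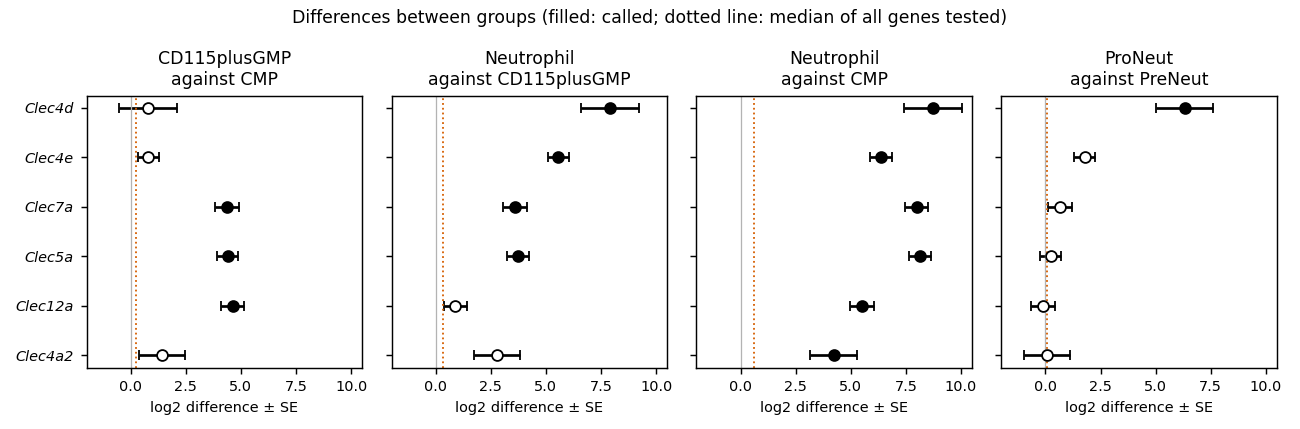
Log2 difference with its SE (horizontal axis) for each receptor gene (vertical axis) in 4 comparisons, n = 3 libraries a group. Filled points were called and the dotted line is the median of all genes tested. All 6 are filled for Neutrophil against CMP, and Clec4d alone for ProNeut against PreNeut.

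In Neutrophil 28 of the 35 tested genes of the signalling list rose against CMP, beside 26.8% of all genes, and 19 against CD115plusGMP, beside 20.2%, with 0 called lower in either, though 2 and 1 were called lower with plain library totals. The adaptor genes Tyrobp, Hcst and Fcer1g rose in both, Tyrobp by 5.92 ± 0.53 against CMP and 2.90 ± 0.53 against CD115plusGMP. Fcer1g was uneven over the Neutrophil libraries, with 4, 29 and 85 reads, and so was Tyrobp, with 46, 38 and 344; Fcer1g overlapped CD115plusGMP libraries. Syk rose by 6.17 ± 0.65 and 3.68 ± 0.65, with 58, 47 and 185 reads in Neutrophil. Card9 rose against CMP (4.24 ± 0.87, adjusted p = 8e-04) and not against CD115plusGMP (1.74 ± 0.87, adjusted p = 0.15). Its exons partly overlap those of an opposite-strand gene. Il1b, a cytokine gene induced through these receptors whose exons partly overlap an antisense gene, had 397 reads against 2 in CMP (ratio 493, 136 to 4085) and 1 in CD115plusGMP (569, 101.5 to 22522). The Src-family kinase gene Fgr had 274 reads against 0 in CMP, at least 227-fold higher, and rose by 5.20 ± 0.38 against CD115plusGMP. Bcl10 had 38 reads against 0 in CD115plusGMP, at least 18.1-fold higher, and Nfatc1 rose by 4.24 ± 0.70.

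Of the 30 other C-type lectin genes tested, 16 rose and 1 fell in Neutrophil against CMP, and 9 rose and 3 fell against CD115plusGMP. The 16 include Clec4b2, which had 0 reads in every CMP and Neutrophil library. Its difference of 1.37 (limma adjusted p = 0.024) is only the gap between the values that 0 reads take in these groups, and is no rise. Of all genes, 26.8% rose and 17.1% fell in the former and 20.2% and 13.2% in the latter, so the counts against CD115plusGMP are near those of genes in general. Clec4n, the Fc receptor gamma-coupled receptor for fungal mannans, had 3, 19 and 96 reads in the Neutrophil replicates and 0 in every CMP and CD115plusGMP library, at least 97.7-fold and 56.4-fold higher. In the deep set, at far greater depth, it had 7 reads in PreNeut and 4 in ProNeut. Clec12b, next in name to Clec12a, had 146 reads against 0 in CMP, at least 121-fold higher, and rose by 5.58 ± 1.14 against CD115plusGMP; in the deep set it had 3 reads in PreNeut and 4 in ProNeut. Selp had 270 reads against 1 in CMP (ratio 671, 119 to 26584) and Clec4g 191 against 6 (79.1, 35.7 to 218), and they rose by 5.32 ± 0.59 and 5.42 ± 0.86 against CD115plusGMP. Exons of both partly overlap opposite-strand genes. The genes that fell, named after their values were seen, were Lman1, with 0 reads against 40 in CMP (at least 5.37-fold lower) and 13 in CD115plusGMP (at least 3.02-fold lower), and, against CD115plusGMP, Cd93 (-2.44 ± 0.56) and Cd69 (0 reads against 5, at least 1.16-fold lower). The 3 B cell markers in the table summed to 43.3 to 88.8 CPM in Neutrophil, against 0 to 6.44 in CMP and 1.88 to 3.90 in CD115plusGMP. The part of other cells in these results was not tested.

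**Figure D4:**
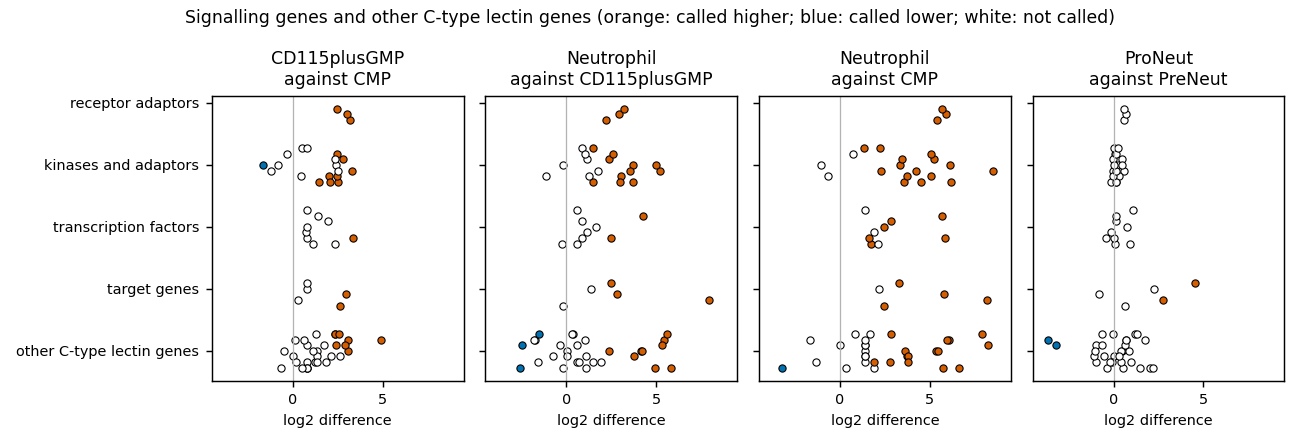
Log2 difference (horizontal axis) of each tested gene of the signalling list, split by role, and of the other C-type lectin genes (vertical axis), in 4 comparisons; points are spread vertically only to separate them. The 3 receptor adaptors are called higher in the 3 shallow-set comparisons, and 2 target genes, Il1b and Ptgs2, in ProNeut against PreNeut.

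ProNeut was compared with PreNeut to see what separates the neutrophil progenitor subsets. Clec4d was the member that passed, and the inhibitory receptors and Clec5a were at similar levels in both. Clec4d had 449 reads in ProNeut against 24 in PreNeut. This is a ratio of 58.7 (38.9 to 92.6), with a fitted difference of 6.31 ± 1.31 (SE, n = 3; limma adjusted p = 0.015). PreNeut replicate 3 weighs on this value. At the rate of replicates 1 and 2 it would have held 64.6 Clec4d reads, and it held 0. Without it the ratio was 15.9 (10.55 to 25.1) and the difference 3.97 (adjusted p = 0.0067). The ratio was 75.7 without PreNeut replicate 1 and 153 (77.0 to 356) without replicate 2, which held 16 of the 24 reads. The call was lost with quantile normalization (3.56, adjusted p = 0.1) and without ProNeut replicate 1 (6.26, adjusted p = 0.06) or 3 (6.17, adjusted p = 0.057). It was the 1 member of 6 called, where 1.84% of all genes were called higher and 0.417% lower.

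Clec4e had non-overlapping libraries, with a mean of 4.73 ± 0.19 (SD, n = 3) in ProNeut against 2.95 ± 0.24, and did not pass. The difference was 1.78 ± 0.48 (SE; limma adjusted p = 0.073), with the spread shared over all 15 libraries. With the spread estimated from the 6 libraries of these 2 groups it passed at the same value (adjusted p = 3.8e-07), as it did with limma voom weights (1.87, adjusted p = 1.3e-06). The read ratio was 3.70 (3.45 to 3.98), and 3.32 without PreNeut replicate 3. Clec7a was at 4.31 ± 0.14 against 3.65 ± 0.09, also without overlap. Its difference of 0.66 ± 0.53 (SE; adjusted p = 0.79) stayed under the 1 log2 unit required in every setting run.

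The other differences were small. Clec5a differed by 0.24 ± 0.49 and Clec12a by -0.12 ± 0.54, both with overlapping libraries. Clec4a2 differed by 0.07 ± 1.05 and was -0.056 with quantile normalization and -0.017 with plain library totals. The SE is estimated over all 15 libraries, while the SD of Clec4a2 was 0.03 in PreNeut and 0.06 in ProNeut. The median of the 6 members was 0.45, against 0.07 over all genes.

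Among signalling genes, 2 of 35 rose and 0 fell, beside 1.84% and 0.417% of all genes, and both that rose are target genes. Il1b rose by 2.76 ± 0.60 (adjusted p = 0.02), with 6, 15 and 74 reads in PreNeut and 43, 48 and 92 in ProNeut, a ratio of 6.04 scaled by library size. Ptgs2, the inducible prostaglandin synthase gene, had 4, 8 and 3 reads against 0 in every PreNeut library, at least 15.7-fold higher, or 4.25-fold without PreNeut replicate 3. With quantile normalization or log2(CPM + 1) the count of risen genes was 0, and with 1 library left out it was 1 or 2. The adaptor genes were not called: Fcer1g was at 8.42 ± 0.19 (SD, n = 3) against 7.84 ± 0.11, Tyrobp at 8.42 ± 0.09 against 7.75 ± 0.17 and Hcst at 4.10 against 3.55. Syk was at 7.91 against 7.77 and Card9 at 6.18 against 6.22. Of 18 kinases and adaptors tested, 0 were called.

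Of the 30 other C-type lectin genes, 0 rose and 2 fell, beside 1.84% and 0.417% of all genes. The 2 were the paired galactose-type lectin genes of macrophages and dendritic cells. Mgl2 had 262, 243 and 982 reads in PreNeut and 5, 19 and 24 in ProNeut (-3.65 ± 0.74, adjusted p = 0.013). Clec10a had 7, 4 and 99 reads against 0, 0 and 1, a read ratio of 0.0285 (0.000715 to 0.162; -3.18 ± 0.76, adjusted p = 0.037) that became 0.0773 without PreNeut replicate 3. The count of fallen genes was 0 with quantile normalization or log2(CPM + 1), and 0 to 2 with 1 library left out. Mgl2 and Clec10a lie in 1 family, and their reads are uncertain where counting could split them. Markers of other cells also differed; those named here were picked after their values were seen. The monocyte and macrophage markers summed to 301 to 342 CPM in PreNeut and 290 to 347 in ProNeut, with 0 of 10 called. The 7 dendritic cell markers summed to 5.16 to 7.96 and 5.82 to 7.29, but 6 of 7 had higher means in ProNeut (median difference 1.72), and Siglech was called higher, with 37 reads against 10. The 5 basophil and mast cell markers summed to 26.2 to 30.2 CPM in PreNeut and 1.67 to 2.05 in ProNeut, with 4 of 4 tested called lower. Of the T and NK cell markers, Nkg7 was called lower, with 144 reads against 4401, and Cd3d higher, with 98 against 18. The 8 erythroid markers summed to 47.0 to 68.9 and 75.0 to 85.6, with 5 called higher. Among the 13 neutrophil markers, 3 were called higher in ProNeut, Mmp8 (7.20), Mmp9 (4.39) and Retnlg (4.82). Another 3 were called lower, Elane (-5.00), Mpo (-4.46) and Prtn3 (-4.30). The part of all these markers in the lectin results was not tested.

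Clec4d was set beside genes of like pattern over the 6 deep libraries. Among 6208 genes with a mean log2 CPM of at least 3, those with the highest Pearson r were Cyth4 (0.995), Nfil3 (0.988) and Dnajc7 (0.988), and 43 genes exceeded 0.95. The r values rest on PreNeut replicate 3, where Clec4d was at 0 reads. These genes had far smaller differences than Clec4d: Cyth4 was at 5.53 in PreNeut and 5.74 in ProNeut, Nfil3 at 4.03 and 4.44, and Dnajc7 at 5.76 and 6.04.

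The split of all called genes into higher and lower followed the scaling, which bears on how the percentages above are read. Of called genes, 63.9% were higher in CD115plusGMP against CMP (33.5% to 81.0% over quantile normalization, median centring and plain library totals), 61.0% in Neutrophil against CMP (29.2% to 83.2%) and 60.5% in Neutrophil against CD115plusGMP (36.6% to 78.6%). In ProNeut against PreNeut it was 81.6% (62.8% to 89.8%). The median of all genes moved by -1.36 to 1.002 log2 units in Neutrophil against CMP, by -0.56 to 0.35 in CD115plusGMP against CMP and by -0.81 to 0.65 in Neutrophil against CD115plusGMP.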

How the data were processed

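Per the labels' protocols, libraries of sorted mouse marrow cells were made with a NuGEN kit, Universal Plus mRNA-Seq. The authors deposited log2 CPM values for 14801 genes by Entrez identifier. FastQC 0.11.7, featureCounts 1.22.2 and edgeR 1.30.5 and the GRCm38 (mm10) build are named in the submitters' processing notes; which aligner, strand setting and annotation were used is not given in the sources used here. Undoing the log2 and dividing by a step constant within a library left a whole number plus 0.5 for 100% of values (tolerance 0.001 reads), and these whole numbers were used as reads.

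Genes with log2 CPM above 0 in at least 3 libraries (14161) were tested with limma 3.58.1 in R 4.3.3 (lmFit, eBayes with trend) over all 15 libraries; p-values are 2-sided and Benjamini-Hochberg adjusted. Calls needed an adjusted p below 0.05 and a difference of 1 log2 unit or more. The scripts were tested on simulated data. Read ratios use reads summed over a group and divided by the summed library sizes, with exact 95% conditional intervals; for 0 reads the floor is 3 reads over the group. The members and gene lists were chosen with earlier results of these data known. Named from the lists were, per comparison, the 4 called genes with the largest difference, plus Clec4n, Fcer1g, Tyrobp, Syk and Card9. Some genes this rule names are not reported here. Alternatives were other scalings, no filter, log2(CPM + 1), limma voom, 2 groups alone, a replicate block and leaving out each library. Promoter sequences are RefSeq's (6 of 6 members matched); protein sequences were not used here.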

Additional observations from a re-analysis of the deposited data

How the results depend on the processing

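Of the members' recomputed differences, 324 kept their direction and their side of the threshold, 6 newly passed, 3 no longer passed and 3 reversed. The 324 held all 84 in CD115plusGMP against CMP and all 84 in Neutrophil against CMP. Clec12a in Neutrophil against CD115plusGMP turned to -0.15 with quantile normalization and passed at 1.55 with median centring. Clec4a2 there passed at 3.44 with median centring and ranged from 1.68 to 4.32 with 1 library left out. In ProNeut against PreNeut, Clec4a2 turned to -0.056 with quantile normalization and -0.017 with plain library totals, and Clec4d did not pass with quantile normalization (3.56) and ranged from 3.97 to 7.73 with 1 library left out. Clec4e passed there with the 2 groups alone (1.78) and with limma voom (1.87). Members called higher in ProNeut were 1 as reported, 2 with the 2 groups alone, 2 with limma voom, 0 with quantile normalization, and 0 to 1 with a library left out. Where a cause is not given above, the cause was not tested.

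Over all genes, ProNeut against PreNeut gave 320 calls, against 903 with the 2 groups alone, 1363 with limma voom, 186 with median centring, 121 with quantile normalization and 91 with log2(CPM + 1). CD115plusGMP against CMP gave 1790, and 2795 with quantile normalization. Same-numbered libraries did not all deviate together (r of -0.053 to 0.145), so replicate numbers were not taken as pairs. With a replicate block, Clec4d in ProNeut against PreNeut was 6.31 (adjusted p = 0.022) and 285 genes were called; no member changed its call. Depth limits the shallow set: a CMP library held 3 or 4 reads on the 6 genes.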
